A study of Homo sapiens with 6 samples.

Results

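The clustered replication-dependent histone genes were examined in Hep-G2 cells, a human liver cancer line in culture, with and without depletion of CLGN, to ask which transcripts the depletion changed. The members were taken as all protein-coding genes of the deposited table whose symbol begins with HIST1, HIST2, HIST3 or HIST4, a rule that used no measured value. It found 71 of the 58735 genes in the table. They comprised 6 linker histone H1 genes, 17 H2A genes, 18 H2B genes, 15 H3 genes and 15 H4 genes. The series holds 6 RNA sequencing libraries. In 3 of them (sh-NC) the cells, labelled wild type, carried a lentiviral control hairpin, and in the other 3 (sh-CLGN) they carried a lentiviral hairpin against CLGN, the gene of calmegin, which helps glycoproteins fold in the endoplasmic reticulum. Per the study's methods, transduced cells were selected with puromycin, and the labels give a single hairpin per group and the same batch name for all 6 libraries. The labels do not say that the libraries came from separate cultures, so every p-value below measures only the spread between these libraries, which may be technical.

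Histones are the proteins around which DNA is wound. A nucleosome holds H2A, H2B, H3 and H4, and the linker histone H1 binds the DNA between nucleosomes. The replication-dependent genes sit in clusters, have no introns in their main transcript and are transcribed mostly while DNA is being copied in S phase. Their messenger RNAs are the only ones in animal cells that usually end in a short stem-loop in place of a poly(A) tail. The stem-loop is bound by SLBP and the end is cut with the help of the U7 small nuclear ribonucleoprotein. Several of these genes are also known to make a second, polyadenylated transcript that runs past the stem-loop. Whether the libraries were made from RNA selected by its tail is not given in the sources used here. Reads on these genes may therefore come mainly from tailed transcripts, and the share of each form was not measured.

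The stem-loop that defines the class was read from the annotated transcripts of GENCODE 29 on GRCh38, as the 16 bases in capitals below with 5 bases on each side. The 5 genes are shown because they carry the 5 spellings found and because each of them passed the test described further on.
HIST2H2BE: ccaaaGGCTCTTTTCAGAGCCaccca
HIST1H2BC: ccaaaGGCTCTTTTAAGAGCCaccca
HIST4H4: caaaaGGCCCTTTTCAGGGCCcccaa
HIST1H4I: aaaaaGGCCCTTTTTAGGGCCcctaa
HIST1H2AG: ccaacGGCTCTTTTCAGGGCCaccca
These lie at chr1:149886183-149886208 (minus strand), chr6:26123467-26123492 (minus strand), chr12:14770719-14770744 (minus strand), chr6:27139649-27139674 (plus strand) and chr6:27133510-27133535 (plus strand), each after the stop codon. The spelling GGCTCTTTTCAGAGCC was found in 17 members, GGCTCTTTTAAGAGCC in 5, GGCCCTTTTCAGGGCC in 5, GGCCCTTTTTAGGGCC in 3 and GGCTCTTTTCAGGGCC in 1, which was HIST1H2AG. Both spellings that begin with GGCCC belonged to H4 genes. In all, 31 of the 71 members had a stem-loop in an annotated transcript, against 40 of all 58676 genes with transcripts (0.0682%). For 35 members the annotated model ends at the stop codon, so the stem-loop could not be seen there and reads on any 3′ end could not be counted.

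A second sequence shared by the H2A and H2B genes is the octamer ATTTGCAT, the binding site of OCT1, the product of POU2F1. It was searched on both strands in RefSeq promoters of GRCh38.p14 (250 bases before to 50 after the start), which were given for 61 members. It was present in 21 of them (34.4%), against 2.19% of all 27305 promoters. By family it was found in 68.8% of H2A promoters, 69.2% of H2B promoters, 7.69% of H3 promoters and in no H1 or H4 promoter. Many H2A and H2B genes lie head to head. Of the 15 octamer windows, 6 were shared by the promoters of 2 members. Among these, chr6:26199396-26199421 was in the promoters given for HIST1H2AD and HIST1H3D, which lie on the same strand and not head to head. It stood 119 bases before the start given for each, and the H3 share above rests on this window. The pairs below are shown because the results turn on them, with the octamer or its reverse complement in capitals and each sequence written on the strand of its gene.
HIST1H2BJ: cttcaccttATTTGCATaagcgattc
HIST1H2AG: gaatcgcttATGCAAATaaggtgaag
HIST2H2BE: ggagccctaATTTGCATaaggtggtt
HIST2H2AC: aaccaccttATGCAAATtagggctcc
The first pair shares chr6:27132826-27132851 and the second pair chr1:149886712-149886737. The octamer began 47 bases before the start of HIST1H2BJ and 46 bases before that of HIST2H2BE. The CCAAT box was present in 83.6% of member promoters and in 39.7% of all promoters, and TATAAA in 68.9% and 14.0%, both searched on both strands. The octamer was in 3 of 9 promoters of members that were higher in sh-CLGN and in 4 of 9 of those that were lower, which describes the letters in these windows and says nothing of binding.

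The deposited FPKM values (fragments per kilobase of gene, scaled by a size per library that differs from its read total) gave back whole reads for every gene. The comparison was made on these reads. They summed to between 14955816 and 16244639 per library. At least 1 read was found on 23578 to 23793 genes in sh-NC and on 26814 to 27006 genes in sh-CLGN, so the groups did not overlap, and the part of this in calls on genes with few reads was not tested. CLGN itself stood at 24.1, 21.0 and 26.1 FPKM in sh-NC and at 9.48, 8.88 and 8.60 FPKM in sh-CLGN, a log2 fold change of -1.40 ± 0.087 (SE, limma adjusted p = 1.09e-12). All 9 hepatocyte markers (ALB, AFP, APOA1 and others) were expressed, 4 higher and 5 lower in sh-CLGN, with a summed level of 7069 to 7306 FPKM in the sh-NC libraries and of 7171 to 7635 FPKM in the others. Of 7 fibroblast markers 5 were tested and all 5 were higher in sh-CLGN, and their list summed to 6.70 to 8.19 FPKM in sh-NC and 47.4 to 49.0 FPKM in sh-CLGN. COL1A2 made up most of it, while THY1 had 2 reads in all and DCN had 1 read. Of 4 endothelial markers 2 were lower and none higher, with KDR at 0 reads, and of 5 leukocyte markers CD14 was lower while PTPRC and CD3E had 5 reads each and CD68 and CD79A 6 reads each. The part of these marker differences in the histone results was not tested.

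The members together took a small share of the libraries, between 0.0349% and 0.0419% of all reads, or 34889 reads over the 6 libraries. Reads were concentrated in few genes. HIST1H2BK alone held 26.4% of them, the 3 leading genes 56.2%, the 7 leading genes 81.1% and the 10 leading genes 86.5%. At the other end 7 members had no read in any library (HIST1H2BA, HIST1H2AK, HIST1H2AM, HIST1H3D, HIST2H3PS2, HIST1H4F and HIST1H4L), which by counting alone allows up to 3 reads each, and 12 had 1 to 9 reads. Of the 7, HIST1H2AK, HIST1H2AM, HIST1H3D and HIST2H3PS2 overlap another annotated gene and share 84.0% to 100% of their windows with other genes, so their reads may have been left out or counted elsewhere. These 19 members were not tested. Their summed reads in the sh-NC libraries were 10, 3 and 9 and in the sh-CLGN libraries 18, 5 and 16, so the groups overlapped. The 52 members with at least 10 reads in total passed the filter on low values.

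Of the 52 members tested, 20 passed at an adjusted p of at most 0.05 (limma with voom weights, adjusted over all 22042 genes tested), 11 higher and 9 lower in sh-CLGN. That is 38.5% of the members tested, below the 51.5% of all genes tested that passed, of which 26.1% were higher and 25.4% lower. Past a fold change of 2 as well (a log2 fold change of at least 1 in size), 5 members were higher and 4 lower, against 12.8% and 4.6% of all genes tested (17.4% in both directions). The libraries of the groups did not overlap for 14 members that stood higher and 9 that stood lower, where 57.8% of all genes tested had such a separation, 30.3% higher and 27.5% lower. The median log2 fold change of the members tested was 0.032, and that of all genes tested was 0.11. The direction of the calls moved with the scaling. With quantile normalization 5 members were higher and 13 lower, and with a correction for GC content 15 were higher and 8 lower. Scaling by read totals left the members at 13 higher and 8 lower but moved all genes tested to 7862 higher and 3784 lower, from 5754 and 5593, and their median to 0.30. The calls of HIST1H2AG, HIST1H2BC, HIST2H2BE and HIST4H4 as higher, and of HIST1H2AC, HIST1H2BJ, HIST1H2BK, HIST1H2BO, HIST1H4I and HIST3H2A as lower, were made under every alternative that tested them. HIST1H2BO, with 56 reads in all, was not tested where at least 60 reads were required.

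The number of reads behind a gene set much of this background, so the members were also read against genes of like depth. Among the 29 members with 10 to 99 reads 3 were higher and 2 lower, where 22.6% of all such genes passed, 20.0% higher and 2.62% lower. Among the 16 members with at least 100 but under 1000 reads 6 were higher and 2 lower, where 54.4% passed, 37.7% higher and 16.7% lower. All 7 members with 1000 or more reads passed, 2 higher and 5 lower, where 72.5% of such genes passed, 25.1% higher and 47.4% lower. Of the 32 tested members that did not pass, 24 had under 100 reads, and their standard errors on the log2 scale reached 0.95. In the same range of reads 5 members passed.

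**Figure D1:**
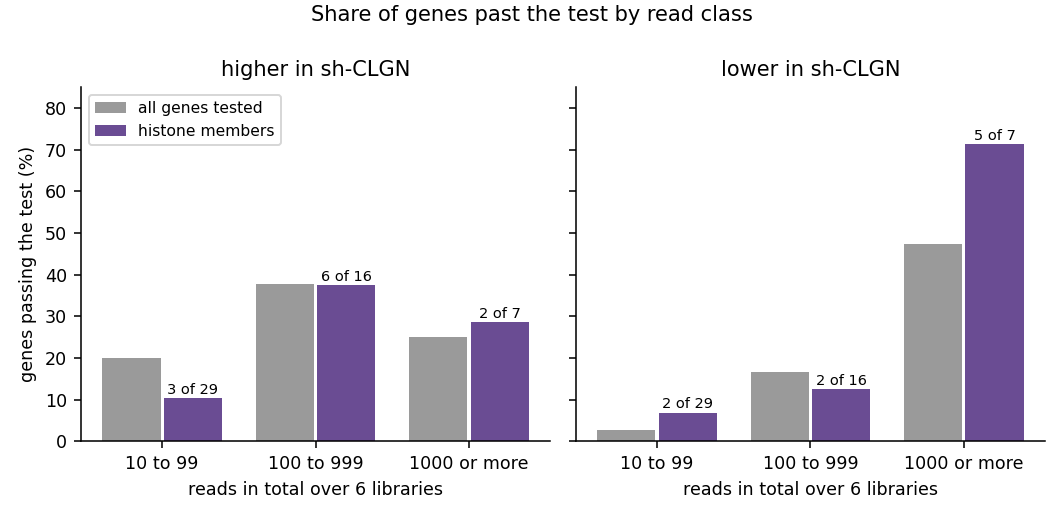
Percentage of tested genes that passed at an adjusted p of at most 0.05, higher (left panel) or lower (right panel) in sh-CLGN, by the total reads of the gene over the 6 libraries. Grey bars are all genes tested and purple bars the histone members, with the count of members above each bar. All 7 members with 1000 or more reads passed, 5 of them lower.

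Among the H2B genes 5 were higher and 3 lower of 14 tested. HIST1H2BK, at chr6:27146418-27146798 with a model of only 381 bases of coding sequence, was the most abundant member per length. It stood at 365, 290 and 324 FPKM in sh-NC and at 204, 202 and 187 FPKM in sh-CLGN. Every sh-CLGN library was below every sh-NC library, and the mean fell by 39.5% (log2 fold change -0.72 ± 0.076 SE, adjusted p = 1.51e-08). HIST1H2BJ fell further, from 12.9, 11.8 and 13.1 FPKM to 4.03, 4.94 and 4.43 FPKM, a log2 fold change of -1.49 ± 0.15 (adjusted p = 7.26e-09). HIST1H2BO, with 13, 14 and 17 reads in the sh-NC libraries against 5, 6 and 1, had the lowest value of the family at -2.16 ± 0.56 (adjusted p = 0.00203). None of these 3 genes has a stem-loop in its annotated model, and the models of HIST1H2BK and HIST1H2BO end at the stop codon, where it could not be seen.

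In contrast, HIST2H2BE rose. It lies at chr1:149884459-149886652, its model runs 1801 bases past the stop codon, and it stood at 5.75, 4.68 and 4.80 FPKM in sh-NC and at 12.5, 11.9 and 13.3 FPKM in sh-CLGN. The groups were well apart, with a log2 fold change of 1.31 ± 0.11 (adjusted p = 2.65e-10), the smallest adjusted p of all members. HIST1H2BC was more variable in sh-NC, with 36, 23 and 60 reads against 106, 104 and 69 reads in sh-CLGN, and still passed (1.12 ± 0.25, adjusted p = 0.000548). HIST1H2BD, the next most abundant H2B gene after HIST1H2BK, rose by less, from 23.6, 21.9 and 24.4 FPKM to 29.7, 28.4 and 30.2 FPKM (0.34 ± 0.093, adjusted p = 0.00394). HIST1H2BG rose from 2.71, 2.23 and 2.23 FPKM to 3.57, 4.45 and 3.15 FPKM (0.63 ± 0.19, adjusted p = 0.00713), a call that was lost without sh-CLGN replicate 2 (adjusted p = 0.0527). HIST2H2BF had 51 reads over the sh-NC libraries against 117 (1.00 ± 0.31, adjusted p = 0.00797) and shares 17.6% of its 100-base windows with other genes, HIST2H2BE among them. All 5 H2B genes that rose have a stem-loop in the model, as do all 6 tested H2B genes that did not pass. Without HIST1H2BK, the summed H2B level was 55.2 ± 5.36 FPKM in sh-NC and 62.8 ± 1.52 FPKM in sh-CLGN (SD, n = 3), while with it the sum was 382 ± 42.01 FPKM and 260 ± 10.7 FPKM.

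**Figure D2:**
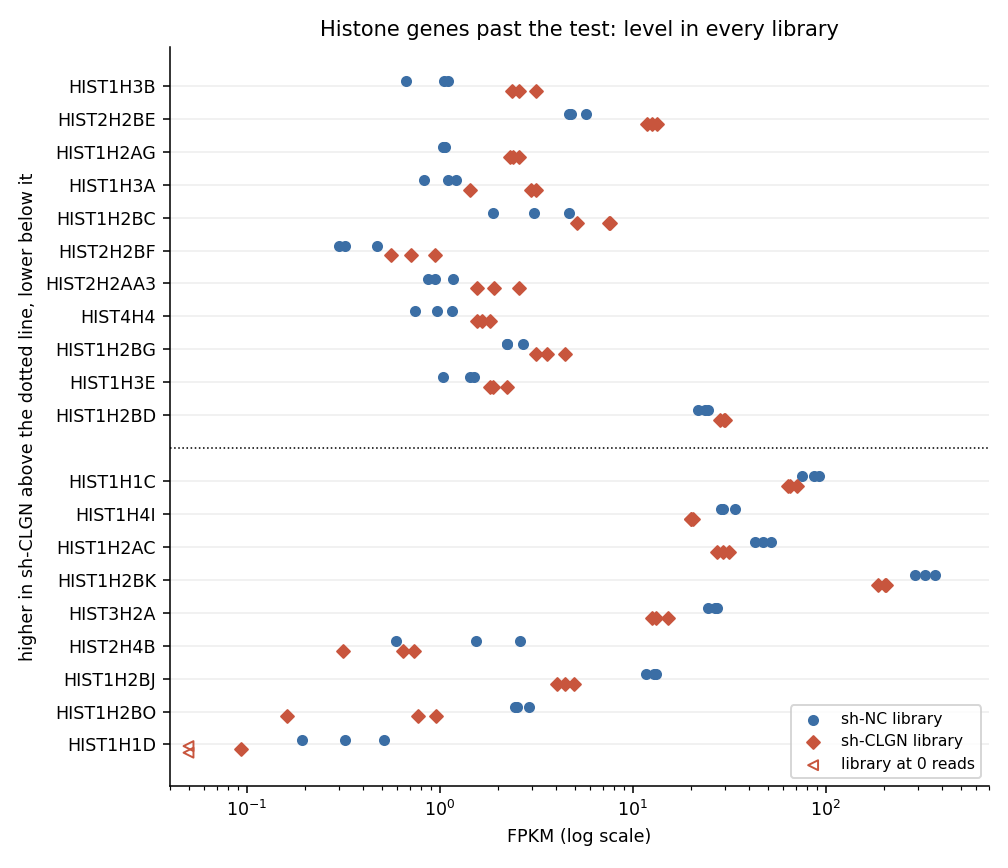
FPKM (log axis) of the 20 histone genes that passed the test, in each of the 3 sh-NC libraries (circles) and 3 sh-CLGN libraries (diamonds). Genes above the dotted line were higher in sh-CLGN and genes below it lower, and open triangles mark libraries with 0 reads. Levels span from under 1 FPKM to 365 FPKM for HIST1H2BK, and the groups overlap only for HIST2H4B.

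Among the 13 H2A genes tested, 2 were higher and 2 lower. HIST1H2AC, at chr6:26124145-26139116, held the most reads of the family. It stood at 47.2, 42.7 and 51.6 FPKM in sh-NC and at 31.6, 27.4 and 29.4 FPKM in sh-CLGN, with no overlap (log2 fold change -0.68 ± 0.080, adjusted p = 8.74e-08). HIST3H2A, at chr1:228456979-228457873, fell from 27.4, 26.8 and 24.6 FPKM to 13.1, 15.3 and 12.6 FPKM (-0.94 ± 0.11, adjusted p = 5.51e-08). HIST1H2AG rose from 1.05, 1.07 and 1.03 FPKM to 2.41, 2.30 and 2.59 FPKM (1.198 ± 0.20, adjusted p = 1.61e-05). HIST2H2AA3 also passed (0.96 ± 0.40, adjusted p = 0.0496), a call lost when any 1 library but sh-CLGN replicate 2 was left out (adjusted p from 0.0726 to 0.158), and every 100-base window of it is present in another gene, HIST2H2AA4 or HIST2H2AC. Reads of HIST2H2AA3 and HIST2H2AA4 summed to 23, 20 and 19 in the sh-NC libraries against 41, 32 and 38, which again did not overlap. The extremes of the family rested on few reads. HIST2H2AB had 0, 0 and 1 reads against 6, 2 and 1, a ratio of 8.0 with a 95% counting interval from 1.11 to 351, and it did not pass (adjusted p = 0.109). HIST1H2AI had 8, 11 and 20 reads against 10, 1 and 10, and a log2 fold change of -1.38 ± 0.59 that did not pass (adjusted p = 0.0532). Without the single reading of 1 in sh-CLGN replicate 2 it also did not pass, whereas it passed without sh-NC replicate 1 (adjusted p = 0.0379), sh-CLGN replicate 1 (0.0493) or sh-CLGN replicate 3 (0.0415).

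H2A and H2B genes that lie head to head allow a comparison within a library, in which the library size cancels. Differences between libraries that go with GC content do not cancel where the genes of a pair differ in it, as HIST1H2BC (a fraction of 0.512) and HIST1H2AC (0.419) do. Over the genes tested, the difference between the groups had a Spearman correlation of -0.234 with GC content. The part of this in the pair ratios was not tested. Divergent pairs of members, with at most 1000 bases between the starts of the models, numbered 12, of which 11 joined an H2A and an H2B gene and 1 joined HIST1H3J and HIST1H2BO. In 7 pairs, all of H2A and H2B genes, both genes were tested. In 2 pairs the calls were opposite, in 4 pairs 1 gene passed and the other did not, in 1 pair neither passed, and in no pair were both called in the same direction. This count depends on the settings, since HIST1H2BG and HIST1H2AE were both called higher on log2(FPKM + 1), and HIST1H2BL and HIST1H2AI both lower with quantile normalization. HIST1H2BJ and HIST1H2AG start 291 bases apart, on either side of the octamer shown above. The ratio of HIST1H2BJ to HIST1H2AG in FPKM was 12.3, 11.03 and 12.7 without depletion of CLGN and 1.67, 2.15 and 1.71 with it. HIST1H2BC and HIST1H2AC start 218 bases apart, and the ratio of HIST1H2BC to HIST1H2AC was 0.0656, 0.0442 and 0.0900 in sh-NC against 0.237, 0.278 and 0.1745 in sh-CLGN. In both pairs the ratios of the groups were well apart in every library. The ratio of HIST2H2BE to HIST2H2AC was also separated, at 0.894, 0.919 and 1.38 against 2.37, 2.24 and 3.995, although HIST2H2AC by itself did not pass (log2 fold change -0.08 ± 0.29, adjusted p = 0.843). HIST3H2A to HIST3H2BB stood at 25.8, 34.2 and 24.3 in sh-NC and at 15.0, 13.1 and 13.0 in sh-CLGN. The ratios of the other 3 pairs overlapped between the groups, and the log2 fold changes within each pair had 1 sign. They were 0.63 ± 0.19 for HIST1H2BG and 0.48 ± 0.23 for HIST1H2AE, and -0.72 ± 0.076 for HIST1H2BK and -0.76 ± 0.68 for HIST1H2AH. For HIST1H2BL and HIST1H2AI they were -1.23 ± 0.55 and -1.38 ± 0.59. HIST1H2AH, HIST1H2BL and HIST1H2AI had only 26, 45 and 60 reads in all, so overlap in their 2 pairs does not show that the genes moved together. The genes of a pair do not overlap in the annotation. Among all genes tested, taken singly, 51.5% passed and 57.8% had libraries separated between the groups. Ratios of other neighbouring genes were not computed, so it is not known whether these counts are particular to histone pairs.

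**Figure D3:**
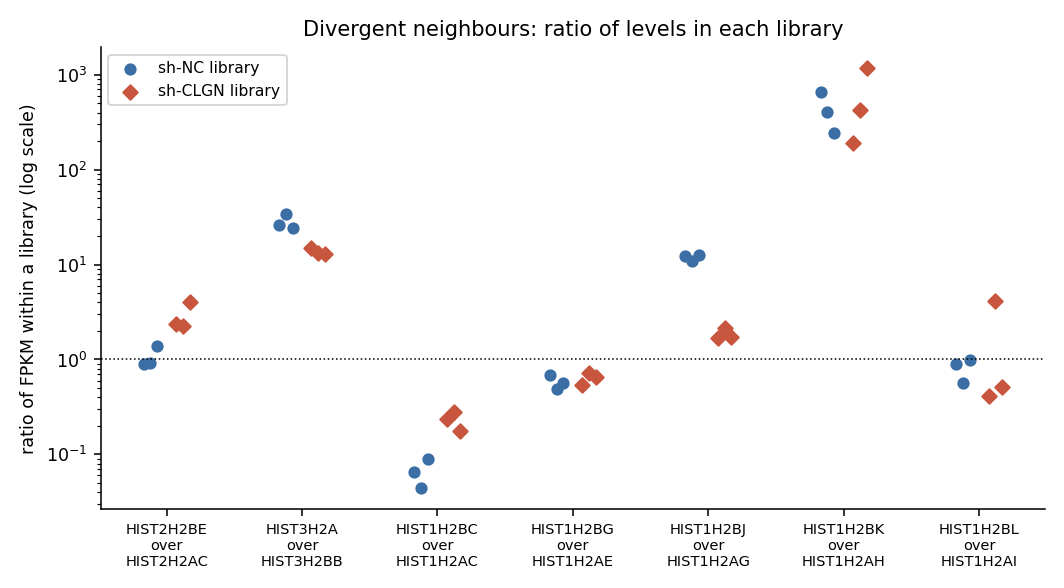
Ratio of the FPKM of the 2 genes of each divergent pair, computed within each library and shown on a log axis, for the 7 pairs in which both genes were tested. Circles are sh-NC libraries, diamonds are sh-CLGN libraries and the dotted line marks equal levels. The ratio of HIST1H2BJ to HIST1H2AG lies at 11.03 to 12.7 for sh-NC circles and at 1.67 to 2.15 for sh-CLGN diamonds, and 4 of the 7 pairs are separated between the groups. Ratios of other neighbouring genes were not computed.

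Among the H3 genes 3 of 9 tested were higher and none lower at an adjusted p, and all 3 calls were lost with quantile normalization. The family was lowly read, with 1070 reads in total and no library above 3.86 FPKM for any gene. HIST1H3B, at chr6:26031650-26032060, had 6, 4 and 7 reads in the sh-NC libraries against 22, 16 and 17, with no overlap (log2 fold change 1.46 ± 0.44, adjusted p = 0.00744). HIST1H3E stood at 1.498, 1.43 and 1.04 FPKM against 1.89, 1.82 and 2.24 FPKM (0.60 ± 0.19, adjusted p = 0.0113). Its call was lost without sh-NC replicate 3 or sh-CLGN replicate 3 (adjusted p = 0.0773 and 0.0529). HIST1H3A had 7, 5 and 7 reads against 10, 20 and 21 (1.12 ± 0.46, adjusted p = 0.0453). This last call was lost when any 1 library but sh-CLGN replicate 1 was left out, with adjusted p from 0.0776 to 0.138. HIST1H3I, the lowest of the family, had 2, 2 and 5 reads against 0, 1 and 4 and did not pass (-1.32 ± 0.88, adjusted p = 0.218). HIST1H3B and HIST1H3A both encode H3.1 and have models that end at the stop codon.

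The H4 genes encode the most conserved histone. Of 11 tested, 1 was higher and 2 lower. HIST1H4I, at chr6:27138588-27139881, carried most reads of the family and fell from 33.8, 29.3 and 28.6 FPKM to 20.4, 20.1 and 20.0 FPKM, with no overlap and a log2 fold change of -0.59 ± 0.088 (adjusted p = 2.82e-06). HIST1H4H stood at 3.81, 3.39 and 3.62 FPKM against 3.71, 3.69 and 3.24 FPKM and did not pass (-0.02 ± 0.14, adjusted p = 0.903). HIST4H4 is the only member on chromosome 12, at chr12:14767999-14771131, and its reads rose from 35, 28 and 46 to 80, 70 and 65 (0.82 ± 0.22, adjusted p = 0.00248). HIST2H4B passed as lower (-1.33 ± 0.43, adjusted p = 0.0116), but its reads overlapped, with 16, 73 and 46 in the sh-NC libraries against 24, 10 and 20. Without sh-NC replicate 2 its adjusted p was 0.0852, and without sh-CLGN replicate 2 it was 0.0812. With robust eBayes in limma it was 0.103. HIST2H4B shares 97.1% of its windows with other genes, mainly its copy HIST2H4A, which had 12, 5 and 3 reads against 4, 11 and 7. The summed level of the 2 copies was 1.82 ± 0.875 FPKM in sh-NC and 0.802 ± 0.111 FPKM in sh-CLGN (SD, n = 3). HIST1H4B had the highest value of the family (1.33 ± 0.73) on 5 and 16 reads and did not pass (adjusted p = 0.131).

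The linker histone genes were represented almost wholly by HIST1H1C, which encodes H1.2. It stood at 91.5, 87.3 and 75.6 FPKM in sh-NC and at 63.4, 65.5 and 70.5 FPKM in sh-CLGN. The groups were close but did not overlap, and the log2 fold change was -0.35 ± 0.083 (adjusted p = 0.00104). This call did not hold when libraries were scaled by read totals (-0.15, adjusted p = 0.119) or corrected for GC content (-0.15, adjusted p = 0.0692). HIST1H1D, which encodes H1.3, had 3, 5 and 2 reads in the sh-NC libraries against 0, 0 and 1, a ratio of 0.0889 with a 95% counting interval from 0.00205 to 0.625. It passed (adjusted p = 0.0237), but its adjusted p was 0.0537 without sh-NC replicate 1, 0.0854 without sh-NC replicate 2, 0.102 without sh-CLGN replicate 1 and 0.104 without sh-CLGN replicate 2. HIST1H1E (H1.4), HIST1H1A (H1.1) and HIST1H1B (H1.5) had 83, 40 and 38 reads in all, overlapped between the groups and did not pass, at log2 fold changes of -0.42 ± 0.49, -0.64 ± 0.65 and -0.24 ± 0.58. Without sh-NC replicate 2, HIST1H1E passed (-1.06, adjusted p = 0.0392). HIST1H1T, the testis form, had 5 reads and was not tested.

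**Figure D4:**
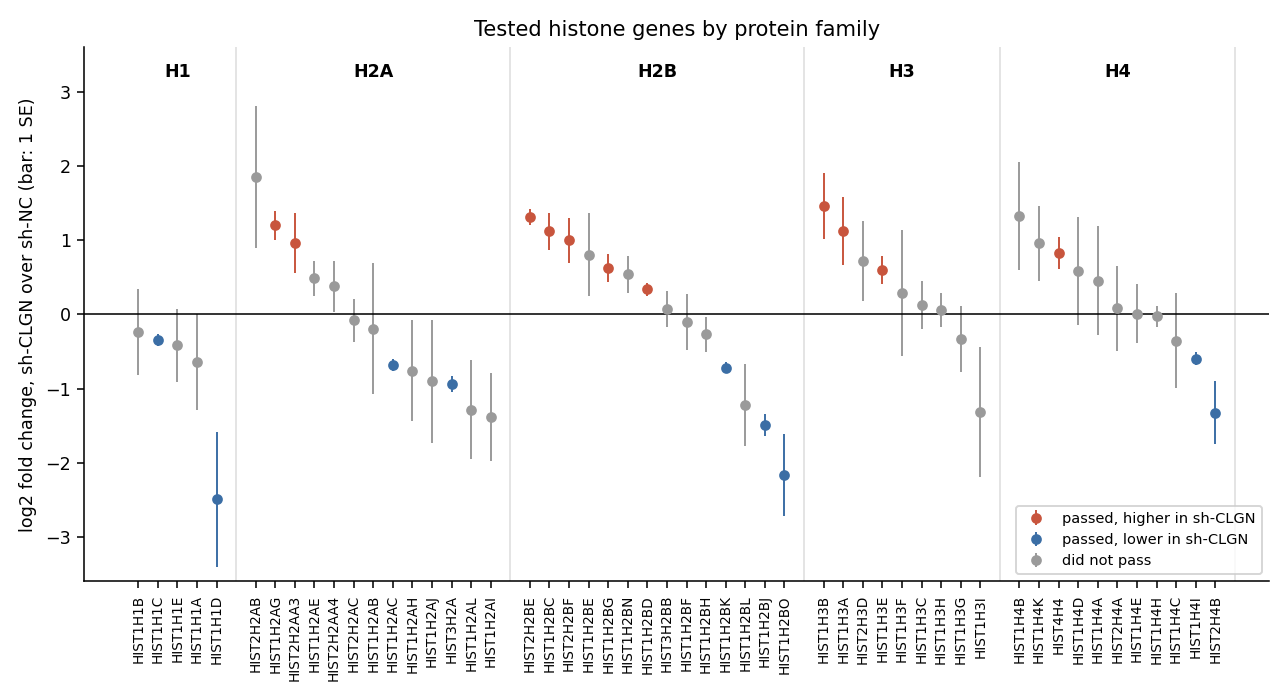
Log2 fold change of sh-CLGN over sh-NC with 1 standard error for the 52 tested histone genes, grouped by protein family and ordered by value. Red points passed as higher, blue points passed as lower and grey points did not pass. H2A, H2B and H4 each hold genes that passed in both directions, from -2.16 for HIST1H2BO to 1.31 for HIST2H2BE within H2B.

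Each family but H3 and H1 thus held calls in both directions. The share of tested members that passed was 40% for H1, 30.8% for H2A, 57.1% for H2B, 33.3% for H3 and 27.3% for H4. Over all genes tested 51.5% passed. The median log2 fold change of the tested members was -0.42 for H1, -0.20 for H2A, 0.20 for H2B, 0.29 for H3 and 0.082 for H4, with no test, and with quantile normalization it was below 0 for all 5 families. Single libraries moved several of these medians. For H2A it was 0.14 without sh-CLGN replicate 3, -0.38 without sh-CLGN replicate 1, -0.32 without sh-NC replicate 3, -0.036 without sh-NC replicate 2 and -0.54 without sh-NC replicate 1. For H3 it was -0.014 without sh-NC replicate 1, 0.12 without sh-CLGN replicate 2 and 0.51 without sh-NC replicate 2. For H1 it was -0.032 without sh-CLGN replicate 3 and -0.76 without sh-CLGN replicate 2. For H4 it ranged from 0.013 without sh-NC replicate 2 to 0.53 without sh-NC replicate 1, and for H2B it was lowest without sh-NC replicate 2 (0.10).

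By position, 34 members lie in the first chromosome 6 cluster (chr6:25726132-26285638), 21 in the second (chr6:27125897-27893843), 12 in the HIST2 group of chromosome 1 (chr1:143905556-149887916, with HIST2H3PS2 apart from the other 11), 3 further along chromosome 1 (chr1:228424845-228460470) and 1 on chromosome 12. The second chromosome 6 cluster held 1 higher and 4 lower members of 15 tested, and its summed level went from 386 ± 42.5 FPKM in sh-NC to 235 ± 7.78 FPKM in sh-CLGN (SD, n = 3). Without HIST1H2BK its sum was 59.3 ± 4.83 FPKM and 37.9 ± 2.01 FPKM, still with no overlap between the groups. Most of this remaining fall lay in HIST1H4I (means of 30.6 and 20.1 FPKM) and HIST1H2BJ (12.6 and 4.47 FPKM), while HIST1H2AG rose. The first cluster held 6 higher and 3 lower of 25 tested, with sums of 184 ± 8.64 FPKM and 164 ± 0.873 FPKM. The HIST2 group held 3 higher and 1 lower of 9 tested, with sums of 15.7 ± 2.04 FPKM and 24.6 ± 1.68 FPKM, and without HIST2H2BE these were 10.6 ± 1.64 FPKM and 12.04 ± 2.01 FPKM, which overlapped. In the HIST3 group HIST3H2A fell, HIST3H2BB (35, 27 and 37 reads against 35, 45 and 37) did not pass (0.07 ± 0.24, adjusted p = 0.828), and HIST3H3, a testis H3, had 1 and 2 reads. Of the tested members 33.3% passed in the second chromosome 6 cluster, 36% in the first and 44.4% in the HIST2 group. Over all genes tested 51.5% passed. The difference between clusters was not tested.

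Over all 71 members the summed level was 669, 565 and 608 FPKM in sh-NC and 450, 444 and 429 FPKM in sh-CLGN, a ratio of the means of 0.718. HIST1H2BK accounted for most of this difference. Without it the sums were 304, 275 and 283 FPKM against 246, 242 and 242 FPKM, a ratio of 0.846, and over the 64 members with under 1000 reads the ratio was 1.02. The summed level of all genes in the table, for comparison, had a ratio of 0.915. These ratios rest on the library sizes behind the FPKM values, which differ from the read totals, and give short models more weight. As a share of all reads, the members took 0.0419%, 0.0368% and 0.0399% in sh-NC. In sh-CLGN they took 0.0367%, 0.0356% and 0.0349%, so on this measure the groups nearly touched. In bulk samples, fewer cells in S phase and less histone RNA per cell cannot be told apart.

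The annotated end of the model went with depth. The 25 members whose model runs more than 150 bases past the stop codon had a median of 245 reads, and 23 of them were tested, 8 higher and 5 lower. The 35 members with coding sequence only had a median of 14 reads, and 21 were tested, 2 higher and 4 lower. The 11 members with a short annotated end, of up to 150 bases, held 1 higher and none lower of 8 tested. In the same order 56.5%, 28.6% and 12.5% of the tested members passed, against 51.5% of all genes tested. A longer model collects more reads and lowers FPKM where the shorter transcript is the main one, so levels of genes with different models are not strictly comparable. Of the 11 members that rose 8 had a stem-loop in the model, of the 9 that fell 4 did, and of the 32 that did not pass 15 did. Models with coding sequence only, where a stem-loop could not be seen, were 2, 4 and 15 of these in the same order. The tally therefore depends on the annotation.

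Copies add a further limit. Of the 71 members 25 share at least one 100-base window with another annotated gene, and how reads that fit several genes were counted is not given in the sources used here. Among the 46 members with no shared window 36 were tested, 7 higher and 7 lower (38.9%, against 51.5% of all genes tested). HIST1H2BK shares 28.4% of its windows with H2BFS. In addition 16 members overlap another annotated gene, and strand was not stated for the counting.

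The lists that follow were written from general knowledge of histone supply, with the same test. The genes of the first 4 lists were mostly well read, with medians of 4214 to 12594 reads per gene, and for genes with 1000 or more reads the background was 25.1% higher and 47.4% lower, against 26.1% and 25.4% over all genes tested. Among 12 histone genes outside the clusters, most of which encode variants used also outside S phase, 11 were tested, 1 higher and 8 lower, with a median log2 fold change of -0.26 that turned to 0.014 with quantile normalization. H1F0, the linker variant of resting and differentiating cells, fell from 185, 166 and 170 FPKM to 46.4, 46.2 and 48.4 FPKM (-1.88 ± 0.059, adjusted p = 3.78e-18). H2AFX, whose product marks DNA breaks when phosphorylated and whose messenger RNA is also known in a stem-loop form, fell from 121, 114 and 94.9 FPKM to 51.1, 48.1 and 50.6 FPKM (-1.13 ± 0.076, adjusted p = 4.61e-12). H3F3B, one of the genes of the variant H3.3, fell by 0.54 on the log2 scale (SE 0.049, adjusted p = 7.22e-10), whereas H3F3A, the other, was close to 0 (-0.02 ± 0.052, adjusted p = 0.762). All libraries were separated for the first 3 of these genes, and H1F0 thus stood below HIST1H1C per length in sh-CLGN but above it in sh-NC. H2AFJ was the 1 gene of the list that rose (0.66 ± 0.087, adjusted p = 4.90e-07).

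Of 22 genes that make, process or degrade histone messenger RNA, all tested, 5 were higher and 9 lower, with a median of -0.15 that turned to 0.048 when libraries were scaled by read totals. SLBP, which binds the stem-loop, stood at 51.9, 57.9 and 52.4 FPKM against 50.4, 49.5 and 46.5 FPKM and did not pass (-0.15 ± 0.067, adjusted p = 0.0697), although it passed without sh-NC replicate 3 (adjusted p = 0.0282). NPAT, the coactivator of histone gene transcription, rose from 1.46, 1.35 and 1.78 FPKM to 2.17, 2.26 and 2.12 FPKM (0.52 ± 0.12, adjusted p = 0.000715). LSM11, a protein of the U7 particle, fell from 2.33, 2.58 and 2.32 FPKM to 1.18, 1.31 and 1.27 FPKM (-0.94 ± 0.12, adjusted p = 3.50e-07). UPF1, a helicase used in the decay of histone messenger RNA, fell from 70.2, 72.3 and 64.2 FPKM to 35.3, 35.9 and 37.5 FPKM (-0.93 ± 0.054, adjusted p = 2.70e-13). CCNE1, the cyclin whose kinase phosphorylates NPAT, fell by 1.30 on the log2 scale (SE 0.11, adjusted p = 2.68e-10). POU2F1, the octamer factor named above, fell by 0.36 (SE 0.083, adjusted p = 0.000709).

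Of 22 histone chaperone genes, all tested, 3 were higher and 15 lower, with a median of -0.39 that was -0.19 with read totals, -0.23 with quantile normalization and -0.25 with the GC correction. CHAF1B, a subunit of the factor that places new H3 and H4 on copied DNA, fell from 7.02, 7.74 and 6.49 FPKM to 2.91, 3.15 and 3.19 FPKM (-1.19 ± 0.098, adjusted p = 1.61e-10), and its partner subunit CHAF1A fell by 0.63 (SE 0.074, adjusted p = 8.70e-08). RBBP7 fell by 0.75 (SE 0.063, adjusted p = 2.73e-10). ATRX, which with DAXX places H3.3 at repeats, rose from 1.47, 1.44 and 1.58 FPKM to 5.36, 5.33 and 5.52 FPKM (1.85 ± 0.076, adjusted p = 3.98e-16). Of 40 genes of DNA synthesis and S phase, all tested, 1 was higher and 30 lower (median -0.51, and -0.31 with read totals). E2F2, a transcription factor of S-phase entry, fell from 7.79, 8.13 and 7.33 FPKM to 1.62, 2.17 and 2.09 FPKM (-1.99 ± 0.11, adjusted p = 1.27e-13). GINS2 and GINS1, subunits of the replicative helicase complex, fell by 1.11 (SE 0.080, adjusted p = 1.47e-11) and 0.82 (SE 0.063, adjusted p = 4.55e-11). PCNA, the sliding clamp, was at 142 ± 7.68 FPKM and 137 ± 7.95 FPKM (SD, n = 3) and did not pass (adjusted p = 0.496). The histone members with 1000 or more reads were 2 higher and 5 lower, and a difference between lists was not tested.

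**Figure D5:**
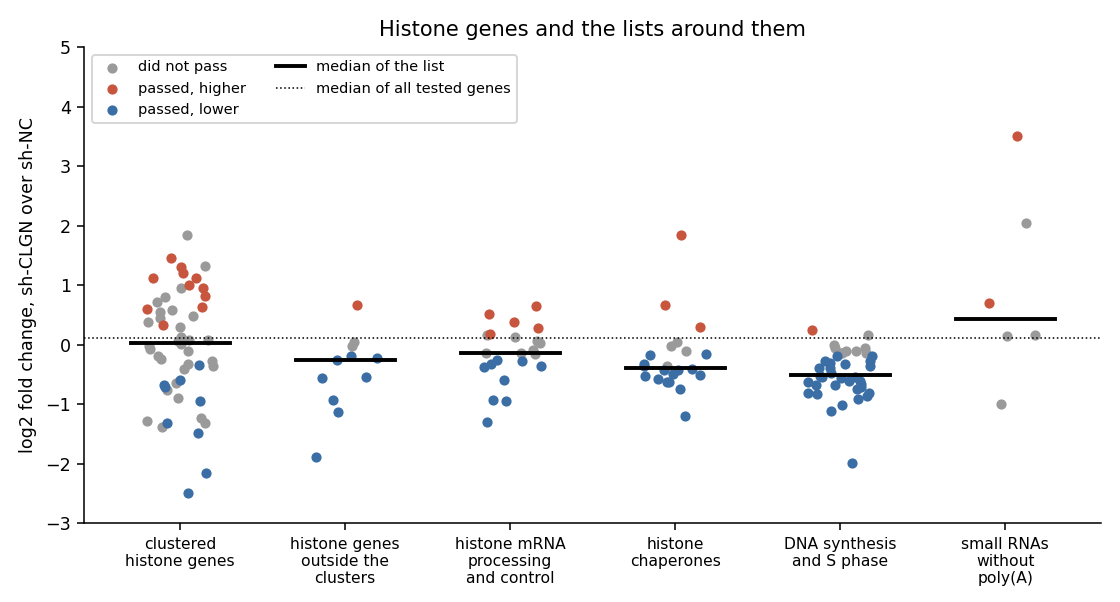
Log2 fold change of each tested gene among the clustered histone genes and in 5 related lists, with red points for genes that passed as higher, blue for lower and grey for the rest. Thick bars are list medians and the dotted line is the median of all genes tested, 0.11. Of the 40 genes of DNA synthesis, with a median of 6626 reads per gene, 30 fell and 1 rose. The 71 histone members had a median of 52 reads, and those tested spread from -2.49 to 1.85. Both of these ends rest on few reads, HIST1H1D with 11 and HIST2H2AB, which did not pass, with 10.

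Other RNAs that carry no poly(A) tail were set beside the members. Of 37 such RNAs (38 entries of the table, since RMRP has 2), 23 entries had no read. Among these were RN7SL1, RN7SK, RMRP, RPPH1 and the U1, U2, U5 and U7 genes listed. Only 6 were tested, 2 higher and 0 lower, where 26.1% of all genes tested were higher and 25.4% lower. At an unadjusted p of at most 0.05 (limma) there were 3, and the median log2 fold change was 0.43. RN7SL2, an RNA of the signal recognition particle, stood at 463, 352 and 277 FPKM in sh-NC and at 607, 588 and 535 FPKM in sh-CLGN, with no overlap (0.70 ± 0.10, adjusted p = 2.91e-06). Its level may depend on how reads that fit several genes were counted, which is not given. RNU6-2, a U6 gene, had 0, 0 and 1 reads against 7, 8 and 12, a ratio of 24.0 with a 95% counting interval from 3.96 to 983 (adjusted p = 0.000934). SCARNA6 had 0, 0 and 1 reads against 5, 4 and 1 and did not pass (adjusted p = 0.0705). The number of reads on untailed RNAs was thus too low for most of them to be compared.

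On the scale of the deposited values, log2(FPKM + 1) among genes that reached 1 FPKM in 3 or more libraries, 30 of the 71 members were tested, 11 higher and 7 lower. Over all genes on this scale 65.8% passed, 26.7% higher and 39.0% lower. Of the calls made on reads, 10 higher and 7 lower members were called in the same direction here, and none in the opposite one. The 3 not called here, HIST2H2BF, HIST1H1D and HIST2H4B, were below the FPKM filter. On this scale without the filter, HIST2H2BF and HIST1H1D were called, while HIST2H4B still did not pass (limma adjusted p = 0.101). HIST1H2AE (4.15 ± 0.367 FPKM against 5.86 ± 0.894 FPKM, SD, n = 3) was called here but not on reads with the library sizes used above. It was also called on reads scaled by read totals, with the GC correction and without sh-CLGN replicate 3.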

How the data were processed

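RNA of 6 Hep-G2 libraries, 3 per group, was measured by RNA sequencing from total RNA with a NEBNext Ultra kit. The authors deposited FPKM per gene for 58735 genes, whose positions equal those of GENCODE 29. The submitters' processing notes name HISAT2 2.0.5, featureCounts and GRCh38. Selection by poly(A) tail, strandedness and the handling of reads that fit several genes are not given in the sources used here. These steps decide how many reads of untailed or near-identical histone transcripts were counted.

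FPKM multiplied by gene length and divided by the smallest such product of a library gave whole reads within 0.01 of a read for all genes, and the library size behind each column. These sizes were 0.933 to 0.953 times the read totals in sh-NC and 1.07 to 1.08 times in sh-CLGN. Median-ratio size factors in their place gave the same calls over all genes (5754 higher and 5593 lower) and the same median of 0.11. Reads were compared with limma 3.58.1 (voom, eBayes, R 4.3.3) with these sizes, on genes with at least 10 reads in total, and p-values were adjusted by Benjamini and Hochberg over all genes tested. The voom offset was 0.5 reads. The standard errors given with log2 fold changes are those of this fit. A second fit used limma with a trend on log2(FPKM + 1). The tests are two-sided. Sums of FPKM were not tested. Ratios on few reads carry exact 95% intervals, which cover counting error only, as does the limit of 3 reads for a gene at 0. In simulated libraries 139 of 190 genes changed by a log2 fold change of 1.5 in size were recovered with 5 false calls among 21511 genes. The simulation changed far fewer genes than the 51.5% that passed in the data, and gave all genes the same added spread. Its rates of recovery and false calls therefore do not carry over to these data.

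The members and lists were chosen with earlier results of these data known. Genes were named by rule: the 10 members with most reads, up to 5 members with the smallest adjusted p in each direction past both thresholds, tested H1 genes, the HIST3 and HIST4 genes, the extremes of each family, 3 genes of each list, SLBP, NPAT and CLGN. All other genes were named after their values were seen. Sequences were read from GENCODE 29 transcripts on GRCh38 and from RefSeq promoters on GRCh38.p14. Further steps were run in Python 3.11.15, with pandas 2.3.3 and numpy 2.4.6 for tables, scipy 1.17.1 for intervals and matplotlib 3.10.9 for plots.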

Additional observations from a re-analysis of the deposited data

How the results depend on the processing

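In the alternatives that gave a named gene a value, none reversed its direction past the threshold. Median-ratio size factors repeated the main fit. Robust eBayes and the test against a fold change of 1.2 keep its log2 fold changes, so these settings could not reverse a direction. All of them are included in the counts that follow. Of the values of 46 named genes, 837 kept their side of the threshold, 41 lost it and 21 gained it, 19 and 6 of these when 1 library was left out. With quantile normalization the members were 5 higher (1 past both thresholds) and 13 lower (7 past both), the medians were -0.41 over all members, -0.53 for H2A and -0.26 for H3, all genes past both thresholds and higher numbered 1594 and their median was -0.023, and the list medians were 0.014 (histone genes outside the clusters), -0.027 (processing), -0.23 (chaperones) and -0.34 (S phase). With read totals 8 members were higher past both thresholds, 621 genes were lower past both, and the medians were 0.30 for all genes, 0.23 for members, 0.0061 for H2A, and -0.069, 0.048, -0.19 and -0.31 for the lists in the same order. With the GC correction 8 members were higher past both thresholds and the medians were 0.045 for H2A, -0.25 for chaperones and -0.36 for S phase. On log2(FPKM + 1), with and without the FPKM filter, 1 member was higher and 2 lower past both thresholds, the S-phase median was -0.41, and 404 and 411 genes were higher and 417 and 418 lower past both. With the filter 3496 genes were higher and the median of all genes was -0.077. Against a fold change of 1.2, 6 members were higher, and 3695 genes were higher and 3272 lower. With at least 60 reads 1746 genes were higher past both thresholds and the medians were -0.030 for all genes and 0.15 for H2A. Without a filter the median of all genes was 0.24. With protein-coding genes only 1594 genes were higher past both thresholds and the median was -0.040. Leaving out the members that share a window, an alternative chosen after seeing the data, left 7 higher, 3 of them past both. With 1 library left out, 3 to 6 members were higher past both thresholds (3 without sh-NC replicate 2) and 3 to 5 lower, 8 to 10 were higher and 7 to 10 lower in all, and the H2A median lay between -0.54 and 0.14. For settings that change the scaling or the filter, the cause of the difference was not tested. A comparison leaving out members with identical proteins was not run, because no protein table was used here.

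Replicates with the same number did not deviate together (correlations of 0.0222, -0.00772 and -0.0184). These values cannot settle whether they were handled together, which the labels do not say. With the replicate number as a block, 10 members were higher and 11 lower, the H2A median was -0.44 and the CLGN log2 fold change was -1.40.

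Depth limits most members. The 7 with 1000 or more reads had 81.1% of all member reads, and 19 had too few to test. Groups of 3 libraries cannot give an exact permutation p below 0.1, so calls rest on the spread that limma shares across genes.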
